A study of Homo sapiens with 6 samples.

Results

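The genes described here are MDM2, MDM4 and PPM1D, which encode negative regulators of p53, measured in A549 cells after silencing of the long noncoding RNA LINC00525. All probe sets (groups of short probes read as 1 value) annotated with 1 of these gene symbols and no other were taken, which gave 21 of the 49372 probe sets of the array, 11 for MDM2, 6 for MDM4 and 4 for PPM1D. A549 is an established human lung adenocarcinoma line, known to carry an intact p53 gene and to have lost CDKN2A. Of 6 arrays, 3 came from cells with a scrambled control and 3 from cells with LINC00525 downregulated, called knockdown arrays here, and both groups were otherwise labelled as the same untreated line. The titles mark both groups "sh" while the treatment text speaks of siRNA, and LINC00526 and LINC00527 stand in the genotype fields of the second and the third knockdown array. Separate cultures are not stated for the replicates, and p-values therefore rest on the spread among these arrays alone, which may be technical. In bulk RNA, fewer cells of a kind and less RNA per cell cannot be told apart.

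MDM2 is a RING-type ubiquitin ligase that binds p53, blocks its activation domain and marks it for degradation. MDM4, also called MDMX, is a close relative that binds p53 as well and forms a complex with MDM2, but has little ligase activity of its own. PPM1D, also called WIP1, is a serine/threonine phosphatase of the PP2C family that removes activating phosphates from p53 and from the kinases of the DNA damage response. MDM2 and PPM1D are themselves switched on by p53, which closes a negative feedback loop, whereas MDM4 is not a classical p53 target.

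Values are log2 RMA signals, so a difference of 1 is a doubling, and a change is measured against the bulk of genes on the array. The silenced transcript LINC00525 was at 3.86, 3.74 and 3.97 on the control arrays and at 3.67, 3.45 and 3.54 on the knockdown arrays (log2 change -0.30 ± 0.075 SE, limma adjusted p = 0.0372), with 1 of 17 Tag control probe sets, spots for artificial sequences absent from human RNA, above its control mean. The Tag probe sets ranged from 2.27 to 4.60 on the control arrays, and signals in that range cannot be told from background. All 6 epithelial markers lay above the brightest Tag probe set, as did 5 of 8 alveolar type 2 markers, 2 of 5 leukocyte markers, 1 of 6 fibroblast markers and 1 of 5 endothelial markers. The summed linear signal of the leukocyte markers was 191 to 202 on control and 222 to 249 on knockdown arrays. Of the 5, CD68, a lysosomal protein abundant in macrophages, rose by 0.61 ± 0.053 (SE, log2; limma adjusted p = 0.000465), and the other 4 did not pass, at -0.13 to 0.11. PTPRC, which defines leukocytes, lay below 16 of the 17 Tag probe sets. The part of this list in the results below was not tested.

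MDM2 has 2 promoters, and the internal one is the classical site of its activation by p53. RefSeq windows (GRCh38.p14) from 250 bases before to 50 after a transcript start were available for the members, 4 for MDM2, from pairs of nearby starts at each promoter, and 1 each for MDM4 and PPM1D. They are shown because p53 elements in the internal promoter are what MDM2 is known for. Capitals mark matches to the p53 response element consensus, 2 half-sites of 10 bases joined without a spacer and read the same on both strands, with at most 3 mismatches, and, in PPM1D, the cyclic AMP response element TGACGTCA. All lie on the plus strand.
MDM2, outer promoter, chr12:68807922-68808221: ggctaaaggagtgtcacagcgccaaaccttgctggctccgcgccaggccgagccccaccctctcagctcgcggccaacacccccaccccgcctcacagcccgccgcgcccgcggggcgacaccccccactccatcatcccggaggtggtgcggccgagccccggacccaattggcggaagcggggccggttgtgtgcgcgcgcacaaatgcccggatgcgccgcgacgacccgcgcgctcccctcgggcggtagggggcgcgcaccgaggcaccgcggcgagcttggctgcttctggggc
MDM2, internal promoter, chr12:68808767-68809066: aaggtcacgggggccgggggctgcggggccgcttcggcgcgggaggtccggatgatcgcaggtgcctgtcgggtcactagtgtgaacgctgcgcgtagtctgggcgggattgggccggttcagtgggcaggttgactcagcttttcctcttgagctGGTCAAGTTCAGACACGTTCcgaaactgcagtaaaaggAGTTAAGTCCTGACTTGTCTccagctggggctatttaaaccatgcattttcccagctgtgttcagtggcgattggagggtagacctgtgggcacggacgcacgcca
MDM4, chr1:204516156-204516455: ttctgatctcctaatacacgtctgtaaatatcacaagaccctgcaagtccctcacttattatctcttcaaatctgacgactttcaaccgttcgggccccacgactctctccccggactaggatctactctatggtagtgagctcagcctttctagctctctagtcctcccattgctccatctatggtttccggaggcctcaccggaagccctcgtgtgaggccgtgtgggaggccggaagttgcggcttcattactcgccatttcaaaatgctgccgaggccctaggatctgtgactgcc
PPM1D, chr17:60599943-60600242: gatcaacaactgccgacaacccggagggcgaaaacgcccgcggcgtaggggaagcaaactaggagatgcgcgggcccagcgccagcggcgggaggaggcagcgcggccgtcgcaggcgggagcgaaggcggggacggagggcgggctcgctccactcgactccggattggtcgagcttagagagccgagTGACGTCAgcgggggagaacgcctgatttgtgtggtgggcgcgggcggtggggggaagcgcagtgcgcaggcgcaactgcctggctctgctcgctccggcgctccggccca
The internal MDM2 window held 2 such elements. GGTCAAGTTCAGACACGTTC, at -94 to -75 from the start, had 2 mismatches, and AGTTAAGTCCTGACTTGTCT, at -56 to -37, had 3, with 18 bases between them. The best match in the outer MDM2 window had 5 mismatches, in MDM4 5 and in PPM1D 4. Of 35116 windows in the table, 5.20% held at least 1 element with at most 3 mismatches, 0.649% at least 1 with at most 2, and 0.313% at least 2 with at most 3. The cyclic AMP response element was in 1.85% of windows, did not overlap a p53 element in the windows shown, and is its own reverse complement. These limits were set with the MDM2 sequence in view, and a match describes letters only.

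MDM2 was higher on the knockdown arrays. At its brightest probe set, 11731567_a_at, the signal was 6.78, 6.99 and 6.98 on the control arrays and 7.31, 7.24 and 7.32 on the knockdown arrays. Every knockdown value lay above every control value. The group means were 6.92 ± 0.12 and 7.29 ± 0.044 (SD, n = 3 each), and MDM2 rose 1.30-fold, with a 95% confidence interval of 1.17 to 1.43 (log2 change 0.37 ± 0.063 SE, limma adjusted p = 0.00929 over 18132 genes). A change at least as high was seen in 1.99% of genes. The mean of the 11 MDM2 probe sets gave the same order, at 5.27, 5.32 and 5.33 on control and 5.52, 5.50 and 5.72 on knockdown arrays (log2 change 0.28, limma adjusted p = 0.0166). Bacterial hybridization controls were higher on the knockdown arrays by 0.28 and poly-A controls by 0.14. Scaling to these controls subtracts that value from every change: of all genes, 1.28% then rose and 83.2% fell under the first and 2.74% and 46.3% under the second, and of all probe sets 1.13% and 81.6%, and 2.40% and 41.6%. Scaled to the hybridization controls the MDM2 change was 0.09 (adjusted p = 0.352), with 1 of 11 probe sets higher and 1 lower, and scaled to the poly-A controls 0.23 (adjusted p = 0.0210), with 4 higher and 0 lower. Without variance moderation the adjusted p was 0.0677.

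Of the 11 MDM2 probe sets 4 rose, 0 fell and 7 did not pass, in a limma fit over 49293 probe sets in which 4.59% rose and 5.25% fell. Log2 changes ran from 0 to 0.58 with a median of 0.26, against a median of -0.01 over all probe sets tested. The groups did not overlap in 7 of the 11, all with the higher values on the knockdown arrays, against 11.8% of all probe sets. At an unadjusted p under 0.05, 7 of the 11 were higher. Counts at this unadjusted limit, here and below, only describe, since no share over all probe sets or genes is given for them.

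The MDM2 probe set with the highest change was 11731568_x_at, 1 whose annotation names a RefSeq messenger RNA of MDM2. It was at 5.14, 5.05 and 4.90 on control and at 5.62, 5.62 and 5.60 on knockdown arrays. The knockdown values were nearly identical, and all lay above the controls. MDM2 rose by 0.58 there (log2 change 0.58 ± 0.063 SE, limma adjusted p = 0.00134). Probe set 11731565_x_at was at 4.80, 4.79 and 4.64 on control and at 5.16, 5.03 and 5.22 on knockdown arrays, also without overlap, and rose 1.31-fold (log2 change 0.39 ± 0.066 SE, limma adjusted p = 0.00986). The fourth to rise was the dimmest, 11753819_a_at, at 3.25, 3.26 and 3.17 on control and 3.40, 3.40 and 3.45 on knockdown arrays. Its change was small, and its signal lay within the Tag range, with 4 of 17 Tag probe sets above its control mean (log2 change 0.19 ± 0.045 SE, limma adjusted p = 0.0355). That call did not survive the removal of a single array, whichever was removed (adjusted p of 0.0732 to 0.108), while the other 3 calls held on leaving out each array in turn.

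**Figure D1:**
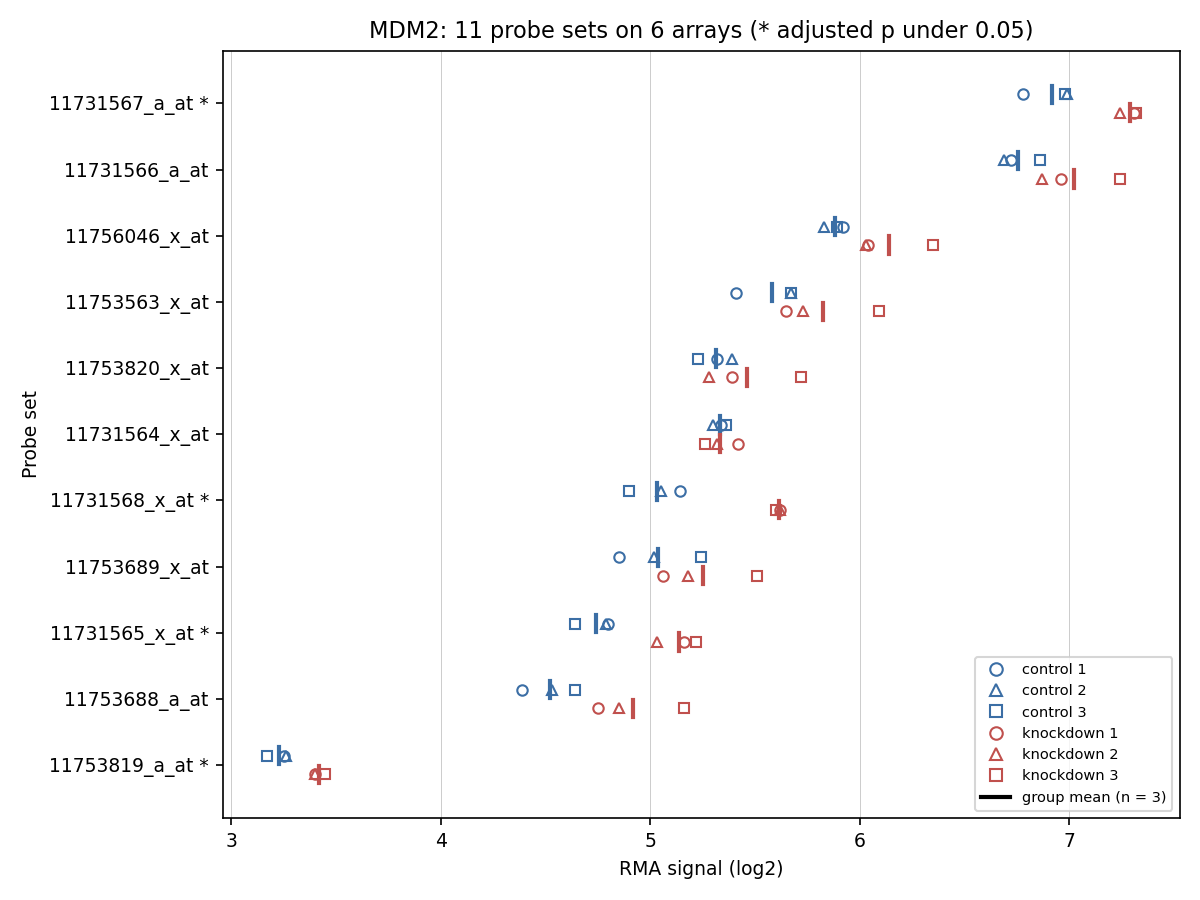
RMA signal (log2, horizontal axis) of the 11 MDM2 probe sets (vertical axis, brightest at the top) on each of 6 arrays; blue symbols are control and red symbols knockdown arrays, with the shape giving the replicate and bars the group means (n = 3). Asterisks mark the 4 probe sets that rose, and the red square of knockdown replicate 3 stands to the right of the other red symbols in 6 of the other 7.

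At the opposite end stood 11731564_x_at, with 5.34, 5.30 and 5.36 on control and 5.42, 5.32 and 5.26 on knockdown arrays. The groups overlapped fully and both means were 5.33 (log2 change 0 ± 0.052 SE). In a pattern picked out after the values were seen, in 6 of the 11 MDM2 probe sets knockdown replicate 3 lay 0.28 to 0.36 above the higher of the other knockdown arrays, and in the other 5 the same difference was -0.16 to 0.06. None of the 6 passed the limma test, and their log2 changes were 0.15 to 0.40, or 0.02 to 0.28 without that array. Both follow in part from how the 6 were picked, since an excess on 1 array widens the spread and raises the mean. Their knockdown SD was 0.18 to 0.23, against 0.012 to 0.097 in the other 5. An example of the 6 is 11753688_a_at, at 4.39, 4.53 and 4.64 on control and at 4.75, 4.85 and 5.16 on knockdown arrays. It did not overlap between groups but missed the threshold (log2 change 0.40 ± 0.11 SE, limma adjusted p = 0.0550). Its control mean lay within the Tag range, with 1 of 17 Tag probe sets above. Its partner 11753689_x_at, designed on the same reference transcript, was at 4.85, 5.02 and 5.24 on control and at 5.06, 5.18 and 5.51 on knockdown arrays, which overlap (log2 change 0.21 ± 0.13 SE). In both of these probe sets replicate 3 was the highest array of each group. The remaining pair on 1 transcript was split, since knockdown replicate 3 stood out in 11753820_x_at (5.39, 5.28 and 5.72 on knockdown arrays) but not in 11753819_a_at. In the array's own measure of RNA quality, 3' minus 5' signal, knockdown replicate 3 lay within the values of the other knockdown arrays for both control genes. For GAPDH the difference was -0.14 to -0.11 on control and -0.16 to -0.15 on knockdown arrays, which do not overlap, and for ACTB it was 0.38 to 0.45 and 0.41 to 0.46, which do. The part of RNA quality in the MDM2 values was not tested.

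Whether the change differs between probe sets of a gene was tested with limma's diffSplice, which sets each probe set against the others of its gene and treats them as independent. MDM2 was not called (F = 1.98, adjusted p = 0.332 over 11734 genes, of which 3.72% were called), and 0 of its 11 probe sets were called against the others, against 1.86% of all probe sets tested (2 of the 11 at an unadjusted p under 0.05). The log2 change of 11731568_x_at exceeded that of the others by 0.33 (limma adjusted p = 0.136), and that of 11731564_x_at was lower by 0.31 (-0.31, limma adjusted p = 0.189). Without knockdown replicate 3 the difference between MDM2 probe sets was called (F = 3.99, limma adjusted p = 0.0355), with 11731568_x_at higher than the others by 0.42 (limma adjusted p = 0.00748). With any one of the other 5 arrays left out it was not called (F of 1.41 to 1.86, limma adjusted p of 0.463 to 0.700).

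Over the 11, Pearson's r between mean signal and log2 change was 0.11 and Spearman's rho -0.03. Without 11753819_a_at, whose mean over the 6 arrays lay below that of the brightest Tag probe set, r was -0.02 (n = 10). Over the 4 MDM2 probe sets with the suffix _a_at alone, r was 0.44 and rho 0.40. The probe sets share their RNA and arrays, and some share a reference transcript, so these values only describe. The brightest and the third dimmest MDM2 probe sets had nearly the same log2 change, 0.37 and 0.39, while 3 probe sets with mean signals of 5.32 to 5.39 spanned the whole range of changes, from 0 to 0.58. Over the 6 MDM4 probe sets r was 0.38, and -0.29 without the one in the Tag range. For the 4 of PPM1D it was -0.48, and -0.93 for the 3 without the suffix _s_at. The suffix _x_at marks probe sets with probes that can bind other transcripts, and 7 MDM2 probe sets carry it. Of these, 2 rose, as did 2 of the 4 with the suffix _a_at, whose probes are meant to match variants of 1 gene.

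**Figure D2:**
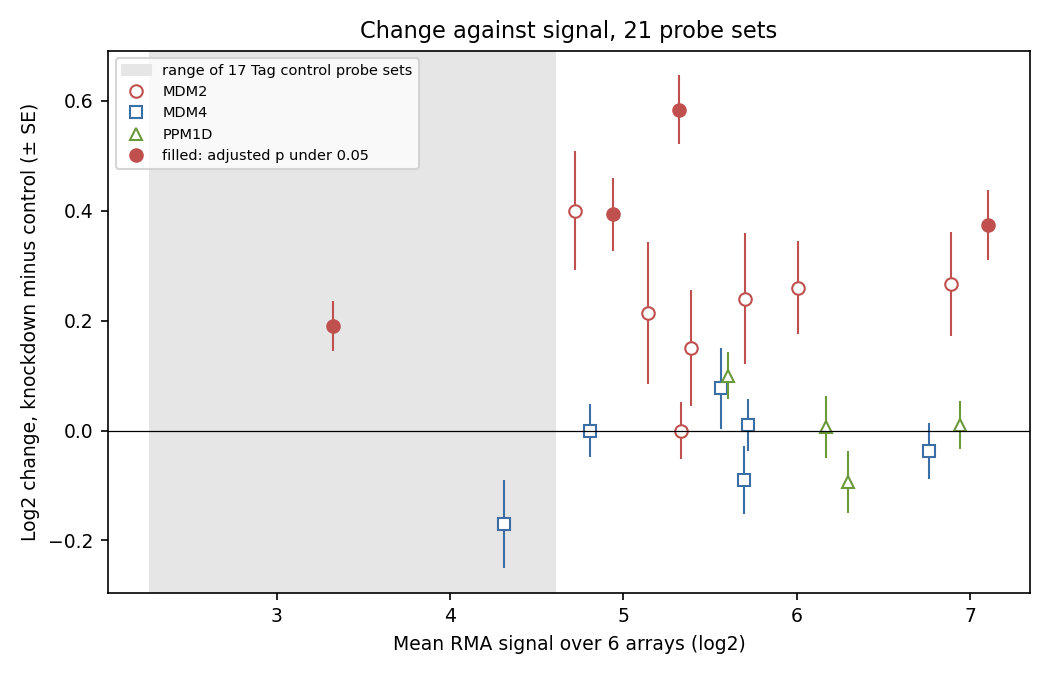
Log2 change (knockdown minus control, vertical axis, bars ± SE) against mean RMA signal over 6 arrays (log2, horizontal axis) for the 21 probe sets of MDM2 (circles), MDM4 (squares) and PPM1D (triangles). Filled symbols passed the limma test, and the grey band is the range of the 17 Tag control probe sets; the circles spread from 0 to 0.58 while squares and triangles stay between -0.17 and 0.10.

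MDM4 did not pass the test at any probe set. At the brightest, 11721915_a_at, it was at 6.72, 6.78 and 6.85 on control and at 6.76, 6.79 and 6.69 on knockdown arrays. The groups overlapped, with means of 6.78 ± 0.065 and 6.75 ± 0.051 (SD, n = 3 each). The log2 change was -0.04 ± 0.048 SE (limma adjusted p = 0.698 over all genes), and its 95% confidence interval ran from 0.902-fold to 1.05-fold. Of the 6 MDM4 probe sets 0 rose and 0 fell in limma, against 4.59% and 5.25% of all probe sets. An unadjusted p under 0.05 was seen in 0 of the 6, and the groups overlapped in all 6. Over all probe sets, 11.8% were higher and 16.8% lower without overlap. The MDM4 log2 changes ran from -0.17 to 0.08 with a median of -0.02. The lowest belonged to 11762979_at, at 4.56, 4.37 and 4.26 on control and at 4.29, 4.26 and 4.13 on knockdown arrays, which is within the Tag range. The mean of the 6 was 5.51, 5.49 and 5.49 on control and 5.49, 5.46 and 5.43 on knockdown arrays. No difference between the MDM4 probe sets was called (F = 1.63, limma adjusted p = 0.571). Scaled to the hybridization controls MDM4 was at -0.32 (adjusted p = 0.00211) with 6 of 6 probe sets lower, against 81.6% of all probe sets, and scaled to the poly-A controls at -0.18 (adjusted p = 0.0318) with 3 of 6 lower, against 41.6%.

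PPM1D did not pass the test either. Its brightest probe set, 11739369_s_at, was at 6.90, 6.99 and 6.92 on control and at 6.96, 6.95 and 6.93 on knockdown arrays. All 3 knockdown values lay inside the control range. The means were 6.94 ± 0.047 and 6.95 ± 0.015 (SD, n = 3 each), with a log2 change of 0.01 ± 0.040 SE (limma adjusted p = 0.904) and a 95% confidence interval of 0.945-fold to 1.07-fold. The suffix _s_at marks probes that can match more than 1 gene. Among the 4 PPM1D probe sets 0 rose and 0 fell in limma, against 4.59% and 5.25% of all probe sets. An unadjusted p under 0.05 was seen in 1 of the 4. That was 11752090_a_at, at 5.51, 5.58 and 5.57 on control and at 5.66, 5.68 and 5.62 on knockdown arrays. It was the 1 of the 4 without overlap, against 11.8% of all probe sets in that direction (log2 change 0.10 ± 0.043 SE, limma adjusted p = 0.1995). The opposite sign was seen at 11751018_a_at, at 6.31, 6.32 and 6.39 on control and 6.15, 6.26 and 6.33 on knockdown arrays (log2 change -0.09 ± 0.056 SE). The difference between PPM1D probe sets was not called (F = 2.61, limma adjusted p = 0.389). Scaled to the hybridization controls, where 83.2% of genes fell, PPM1D was at -0.27 (adjusted p = 0.00748), and scaled to the poly-A controls at -0.13 (adjusted p = 0.0901).

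**Figure D3:**
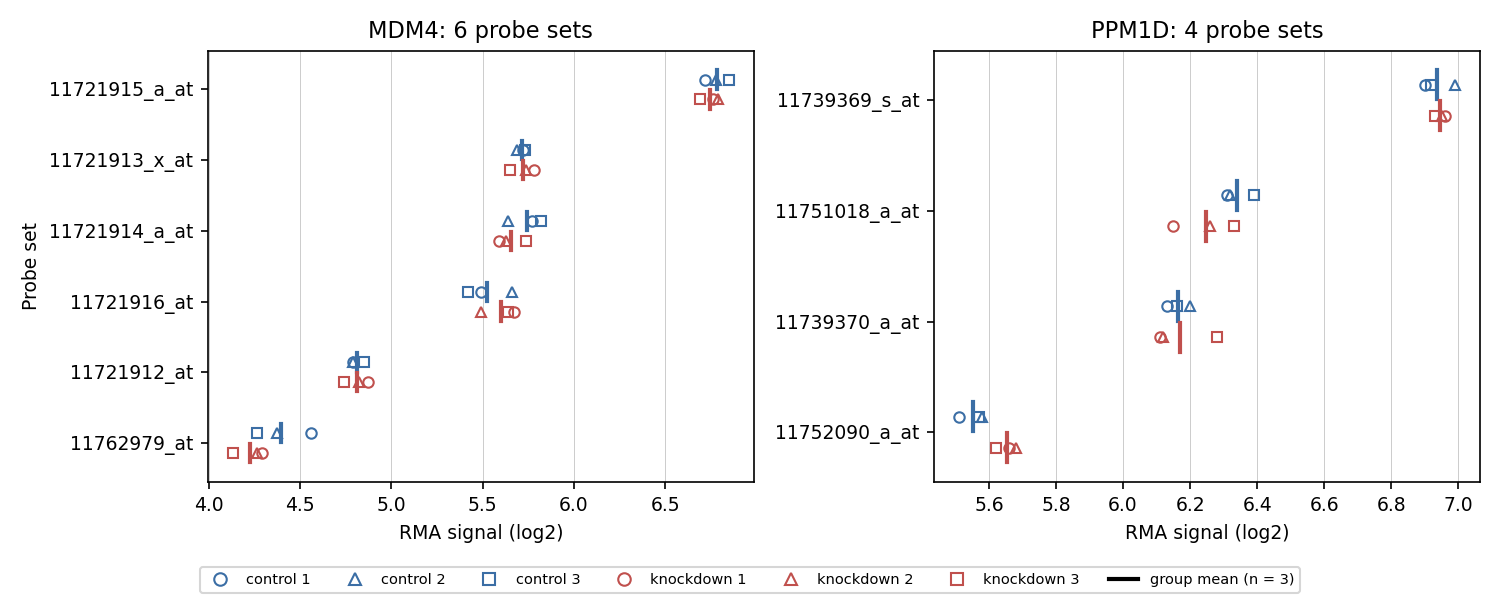
RMA signal (log2, horizontal axes) of the 6 MDM4 and 4 PPM1D probe sets (vertical axes) on each of 6 arrays, drawn as control (blue) and knockdown (red) symbols with bars for group means (n = 3). The groups overlap in all MDM4 probe sets and in 3 of the 4 PPM1D probe sets.

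The difference between 2 genes on 1 array does not change when 1 value is subtracted from the whole array, as in the 2 control scalings. It can change with a normalization that depends on signal. MDM2 minus MDM4, at their brightest probe sets, was 0.06 to 0.21 on the control arrays and 0.45 to 0.63 on the knockdown arrays, a shift of 0.41 ± 0.068 (SE, n = 3 each). MDM2 minus PPM1D was -0.12 to 0.06 on control and 0.29 to 0.39 on knockdown arrays, a shift of 0.36 ± 0.060. Neither pair of ranges overlapped. For each, the exact permutation test (2-sided) gave p = 0.1, the smallest value that 3 arrays against 3 allow, and 0.15 adjusted over the 3 pairs of genes. MDM4 minus PPM1D shifted by -0.05 ± 0.048, with overlapping ranges (exact permutation p = 0.5).

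Other p53 target genes gave a divided picture. Of 33 genes on a list of p53 targets drawn up without MDM2 and PPM1D, 31 were measured; 12 rose, 0 fell and 19 did not pass, against 5.77% rising and 6.83% falling over all genes (16 were higher and 0 lower at an unadjusted p under 0.05 in limma). Their median log2 change was 0.11, against -0.01 over all genes. This list and those below were drawn up with earlier results of these data known, so their shares beside all genes only describe. GDF15, a stress cytokine, rose by 1.05 ± 0.050 (SE, log2; limma adjusted p = 2.15e-05), and GADD45A, a growth arrest gene of the DNA damage response, by 0.89 ± 0.045. BBC3, the pro-apoptotic protein PUMA, rose by 0.84 ± 0.066, CDKN1A, the cell cycle inhibitor p21, by 0.55 ± 0.055, and PMAIP1, the pro-apoptotic protein NOXA, by 0.44 ± 0.046. The other 4 GDF15 probe sets rose by 0.41 to 1.19. The 1 other probe set each of BBC3, CDKN1A and PMAIP1 rose by 0.48, 0.60 and 0.34. Scaled to the hybridization controls, 4 genes of the list rose and 13 fell, against 1.28% and 83.2% of all genes, and PMAIP1 was at 0.16 (adjusted p = 0.109). Scaled to the poly-A controls, 9 rose and 5 fell, against 2.74% and 46.3%. Among classical targets that did not pass, log2 changes were -0.01 for BAX, -0.02 for XPC, -0.02 for DDB2 and 0.04 for CCNG1; they are named after their values were seen. CCNG1 encodes cyclin G1, which acts on MDM2, and XPC and DDB2 recognise DNA lesions.

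Of 13 measured kinases that phosphorylate p53, MDM2 or MDM4, 1 rose and 3 fell, against 5.77% and 6.83% of all genes. Their median log2 change was -0.06, against -0.01 over all genes. Under the hybridization scaling 0 rose and 9 fell, where 83.2% of all genes fell, and to the poly-A controls 0 and 7, where 46.3% fell. The DNA damage kinases PRKDC, ATR and CHEK1 fell by 0.24 ± 0.050, 0.18 ± 0.041 and 0.19 ± 0.039 (SE, log2; limma adjusted p = 0.0202, 0.0255 and 0.0209). The other 5 CHEK1 probe sets were at -0.30 to -0.12, of which 4 fell, whereas the other 3 of PRKDC, at -0.29 to -0.01, did not pass. CSNK1D, a casein kinase 1, rose by 0.16 ± 0.042 (limma adjusted p = 0.0425), but it was at -0.12 when scaled to the hybridization controls, at 0.02 (adjusted p = 0.731) to the poly-A controls and at -0.07 to 0.14 in its other 4 probe sets. With 1 array removed, the calls of ATR and CSNK1D were lost in 6 of 6 cases (adjusted p of 0.0501 to 0.136), that of CHEK1 in all cases except knockdown replicate 1 (0.0537 to 0.0799) and that of PRKDC without control replicate 2 or 3 or knockdown replicate 2 or 3 (0.0517 to 0.0705).

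Genes for nucleolar and ribosomal proteins linked to MDM2 did not pass the test. Of 11 measured genes on this list, 0 rose and 0 fell in limma, against 5.77% and 6.83% of all genes. Their log2 changes were -0.13 to 0.09 with a median of 0 (0 higher and 1 lower at an unadjusted p under 0.05). Under the hybridization scaling 11 fell, where 83.2% of all genes did, and to the poly-A controls 5, where 46.3% did. RPL5 and RPL11, which bind MDM2 when ribosome assembly is disturbed, both had a log2 change of 0; they too are named after their values were seen. CDKN2A, which encodes the MDM2 inhibitor ARF, was at 3.86, 3.89 and 3.62 on control and at 3.90, 3.73 and 3.59 on knockdown arrays, in the Tag range.

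Of 13 other ubiquitin ligases and deubiquitinases that act on p53 or MDM2, 0 rose and 3 fell in limma, against 5.77% and 6.83% of all genes (0 higher and 4 lower at an unadjusted p under 0.05). With the hybridization scaling 12 of the 13 fell, against 83.2% of all genes, and to the poly-A controls 8, against 46.3%. TRIM28, a corepressor that binds MDM2, fell by 0.26 ± 0.050 (SE, log2; limma adjusted p = 0.0160), the ligase UBE4B by 0.19 ± 0.037 (limma adjusted p = 0.0178) and USP7, which removes ubiquitin from MDM2 and p53, by 0.19 ± 0.043 (limma adjusted p = 0.0279). The 4 other USP7 probe sets were at -0.17 to 0.02 and did not pass, and USP7 was at 0.02 without _s_at and _x_at probe sets. Of the 2 other UBE4B probe sets, at -0.28 and -0.05, 1 fell. With 1 array removed, the USP7 call was kept without knockdown replicate 3 and lost in the other 5 cases (adjusted p of 0.0601 to 0.0934), that of UBE4B was lost without control replicate 2 or 3 or knockdown replicate 1 or 2 (0.0528 to 0.0694) and that of TRIM28 without control replicate 2 or 3 or knockdown replicate 2 (0.0553 to 0.0607). TP73, a relative of the p53 gene, was at 0.09 ± 0.043 (limma adjusted p = 0.218).

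Within the phosphatase family of PPM1D, 2 of 15 other measured members rose and 1 fell, against 5.77% and 6.83% of all genes, with a median log2 change of 0.01. With the hybridization scaling 2 rose and 10 fell, where 83.2% of all genes fell, and to the poly-A controls 2 and 5, where 46.3% fell. PDP1, which activates the mitochondrial pyruvate dehydrogenase complex, had means of 6.34 on control and 7.03 on knockdown arrays, a 1.61-fold rise without overlap (log2 change 0.69 ± 0.049 SE, limma adjusted p = 0.000177), and its other 2 probe sets rose too, by 0.49 and 0.62. PPM1K, a mitochondrial phosphatase of branched-chain amino acid breakdown, rose by 0.54 ± 0.11 from a signal below 12 of the 17 Tag probe sets, and its other 2 probe sets, at 0.07 and 0.18, did not pass. Its call was lost without control replicate 1 or 2 (adjusted p of 0.0598 and 0.0709). ILKAP fell by 0.16 ± 0.037 (limma adjusted p = 0.0269), which it did not keep in any of 6 fits with 1 array removed (adjusted p of 0.0521 to 0.0861).

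**Figure D4:**
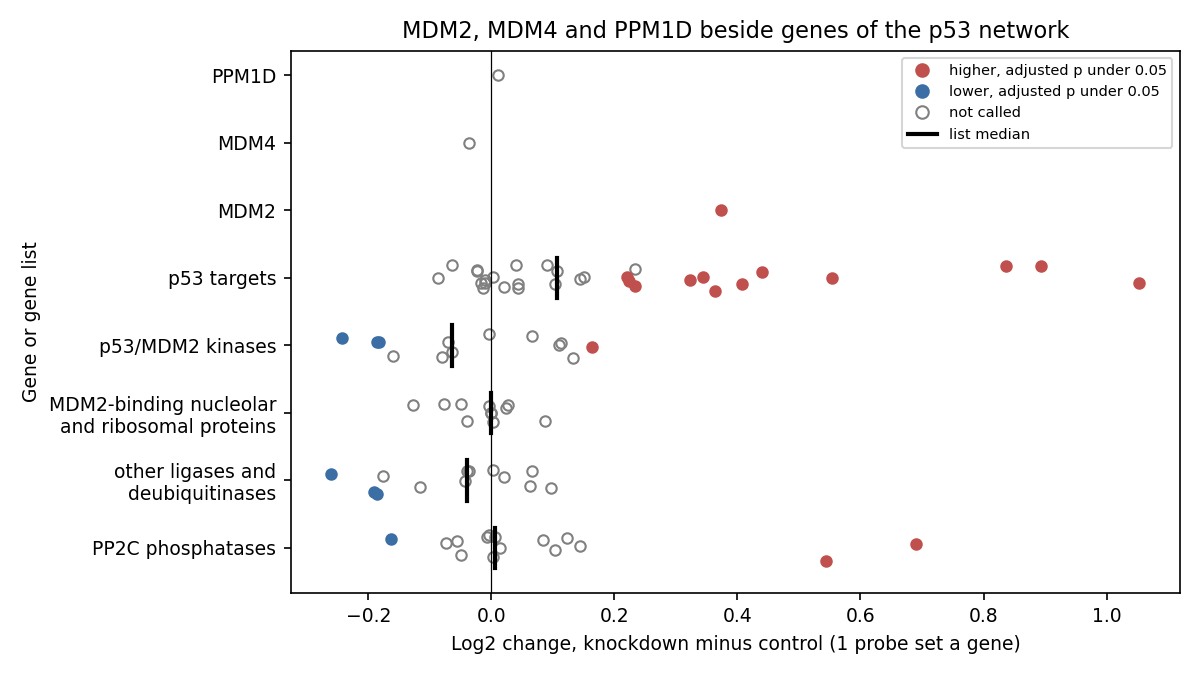
Log2 change (knockdown minus control, horizontal axis, 1 probe set a gene) of MDM2, MDM4, PPM1D and of the genes of 5 lists (vertical axis); filled symbols passed the limma test (red higher, blue lower), open symbols did not, and bars are list medians. MDM2 at 0.37 lies within the range of the p53 targets that rose, while MDM4 and PPM1D lie near 0. The lists were drawn up with earlier results of these data known.

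Genes were ranked by likeness to each member among 11092 genes brighter than every Tag probe set. Symbols of the LOC, open reading frame, KIAA, FLJ, MGC, FAM, LINC, antisense and clone kinds were left out. Those whose signal over the 6 arrays was most like that of MDM2 were DDHD2, RIN3, ETV4, SESN1 and CTSL (Pearson's r of 0.998, 0.996, 0.996, 0.995 and 0.993, n = 6 arrays in 2 groups). Of these SESN1, a stress-induced p53 target, was at 6.28, 6.41 and 6.44 on control and at 6.70, 6.66 and 6.74 on knockdown arrays, and rose by 0.32 ± 0.052 (SE, log2; limma adjusted p = 0.00765). DDHD2 rose by 0.26 ± 0.050 and ETV4 by 0.22 ± 0.043 (limma adjusted p = 0.0156 and 0.0179). RIN3, at 0.09, and CTSL, at 0.13, did not pass (limma adjusted p = 0.181 and 0.0805). For MDM4 the most alike were ZNF189, SNAP23, IL18, RSRP1 and PPP1CB (r of 0.984 to 0.970) and for PPM1D FGL1, NDUFAF5, MGAT3, ACO1 and PCID2 (r of 0.977 to 0.952). The latter 10 genes had log2 changes of -0.08 to 0.01, none past the threshold. Over 6 arrays, the highest of 11092 correlations can be this high among unrelated genes. For MDM2, its own group difference also raises r with any gene that differs between the groups. The rankings only describe, and a link between these genes and the members was not tested.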

How the data were processed

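The data are 6 single-channel expression arrays, 3 from each group. The authors deposited log2 values made with RMA, per the submitters' processing notes; for its software and version, the sources used here give nothing. No scanner files or detection calls were used. Array medians were 5.10 to 5.11, so values were not normalized again, and the number of arrays limits the precision. Arrays of 1 group correlated at 0.9983 to 0.9988 and shared at most 4.81% identical values. Probe sets were named from the platform annotation: 44994 have 1 symbol, 1832 several and 2546 none. Symbols were updated by gene identifier through the GRCh38.p14 gene table (44967 matched). The gene-level fit took the probe set with the highest mean over 6 arrays for each of 18132 genes.

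The test was limma (version 3.58.1, under R 4.3.3), with lmFit and eBayes, 2-sided and without covariates, adjusted by Benjamini-Hochberg over all 49293 probe sets other than the 79 controls, or over all genes, with 0.05 as the threshold. diffSplice ran on the probe set fit. Fits were tested on simulated data. Replicate numbers were not used as pairs. The members and lists were chosen with earlier results of these data known. Genes named from a list by rule are those past the threshold, at most 5 a direction, and CDKN2A. BAX, XPC, DDB2, CCNG1, RPL5, RPL11, TP73, CD68 and PTPRC were named outside it, with their values known. Some listed genes are not analysed here. Figures were drawn with matplotlib 3.10.9.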

Additional observations from a re-analysis of the deposited data

How the results depend on the processing

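MDM2 at gene level kept its direction under every alternative run, at 0.09 to 0.41, and lost its call when scaled to the hybridization controls (0.092) and without variance moderation (0.37, adjusted p = 0.0677). The number of MDM2 probe sets that rose was 1 in each of these, and under the hybridization scaling 1 fell (11731564_x_at, -0.28, adjusted p = 0.00715). It was 3 to 4 when an array was left out, 5 with a replicate block and 6 with a trended, robust variance. Of all 49293 probe sets, 4853 were called in either direction in the main fit. That total was 2215 without control replicate 2 and 3181 without knockdown replicate 1, and it is not given here for the block or the trended variance. Deviations of same-numbered arrays correlated at 0.093, 0.062 and -0.007, so the numbers were not taken as pairs. The replicate block left the MDM2 gene call in place (adjusted p = 0.0270) and added 11731566_a_at (0.27, adjusted p = 0.0453) and 11753688_a_at (0.40, adjusted p = 0.0160), while 11753819_a_at was lost (adjusted p = 0.0828). With a replicate block F for the difference between MDM2 probe sets was 3.40 (adjusted p = 0.103) and 11731568_x_at was called against the others (adjusted p = 0.0482). The calls of PRKDC, CHEK1, CSNK1D, USP7 and ILKAP were lost with the block (adjusted p of 0.0516 to 0.0708). When arrays were left out F was 1.41 to 3.99. MDM4 ran from -0.07 to 0.00 when arrays were left out, and was called at -0.32 and -0.18 under the hybridization and poly-A scalings. PPM1D turned to -0.27 and -0.13 there, to -0.0083 without control replicate 1 (0.037 the highest with an array left out) and to -0.093 without _s_at and _x_at probe sets. Of the p53 target list 11 to 13 rose when arrays were left out and 4 under the hybridization scaling, where 1.28% of all genes rose. Of all 18132 genes, 2285 were called in either direction in the main fit, 1104 without control replicate 2 and 1575 without knockdown replicate 1.

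Scaled to the hybridization controls, signs turned for 11731566_a_at (-0.015), 11756046_x_at (-0.021), 11753563_x_at (-0.041), 11753820_x_at (-0.13), 11753689_x_at (-0.068) and 11753819_a_at (-0.091) of MDM2, 11721913_x_at (-0.27) and 11721916_at (-0.20) of MDM4, 11739369_s_at (-0.27), 11739370_a_at (-0.27) and 11752090_a_at (-0.18) of PPM1D, and CSNK1D (-0.12). Scaled to the poly-A controls they turned for 11721913_x_at (-0.13), 11721916_at (-0.064), 11739369_s_at (-0.13), 11739370_a_at (-0.13) and 11752090_a_at (-0.041). With an array left out they turned for 11739369_s_at (-0.0083 without control replicate 1, up to 0.037), 11739370_a_at (-0.01 without control replicate 1 and -0.048 without knockdown replicate 3, up to 0.037), 11721913_x_at (-0.0017 without control replicate 2 and -0.018 without knockdown replicate 1, up to 0.047) and CDKN2A (0.025 without knockdown replicate 3). USP7 turned to 0.017 without _s_at and _x_at probe sets. These scalings subtract 0.28 and 0.14 from every change by their construction.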
